A study of Mus musculus with 6 samples.

Results

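The Serpina genes described here are 10 members of the serpin clade A cluster on mouse chromosome 12, namely Serpina1a, Serpina1b, Serpina1c, Serpina1d, Serpina1e, Serpina3k, Serpina3m, Serpina3n, Serpina4-ps1 and Serpina6. They were taken by name from the gene tables, which hold 47256 gene names listed once for every mouse. Serpina1b and Serpina1d are listed at 2 places each, on chromosome 12 and on an alternate sequence of the assembly, so the 10 genes gave 12 entries. Another 19 listed names start with Serpina.

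RNA-Seq was made once from liver of each of 6 house mice (Mus musculus). The laboratory group held 3 inbred male C57BL6 mice, adults bought from a breeder and killed on arrival. The wild group held 3 outbred adults of unstated age, live-trapped at a pair of sites in New South Wales and housed for months in captivity, of which wild mouse 1 was male and wild mice 2 and 3 were female. The labels name no treatment. Strain, trapping site, housing and, for the females, sex differed along with the group, and their parts cannot be told apart. The values are FPKM (fragments of a transcript, scaled to its length and to the size of the library) and zFPKM (the log2 FPKM of a gene less the mode of that mouse's distribution, in units of that distribution's SD).

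Serpins are folded around an exposed reactive centre loop. A target protease cuts the loop, the serpin snaps shut, and the protease is left trapped in a covalent complex, so each molecule is used up once. The liver is the main source of the serpins of blood plasma. Serpina1a to Serpina1e are the mouse copies of the gene for alpha-1 antitrypsin, the plasma inhibitor of neutrophil elastase. Serpina3k, Serpina3m and Serpina3n belong to a group of antichymotrypsin-like genes that is enlarged in rodents. Serpina6 encodes corticosteroid-binding globulin, a serpin that carries glucocorticoids in blood and inhibits no protease. Serpina4-ps1 is an annotated pseudogene related to kallistatin.

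All 10 genes lie on chromosome 12 of GRCm38.p6. Serpina6 (chr12:103646630-103657218) comes first, followed by Serpina1b (chr12:103728156-103738189), Serpina1d (chr12:103763587-103773633), Serpina1a (chr12:103853295-103863619), Serpina1c (chr12:103894926-103904950) and Serpina1e (chr12:103946931-103956897), and these 6 genes are on the minus strand. Serpina4-ps1 (chr12:104077959-104086920), Serpina3k (chr12:104338486-104345739), Serpina3m (chr12:104387157-104394259) and Serpina3n (chr12:104406646-104414334) are on the plus strand. The GENCODE transcripts used here have 5 exons in the 9 coding genes and 4 in Serpina4-ps1. Their coding parts are 413 codons long in each of the Serpina1 copies, 418 in the Serpina3 members and 397 in Serpina6.

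The coding bases of the reactive centre loop are shown because the loop is where the copies differ in the part that meets the protease. For Serpina1a to Serpina1e they cover 57 bases of the last exon, codons 363 to 381, with capitals marking the 13 bases that are not the same in all 5 copies.
Serpina1a: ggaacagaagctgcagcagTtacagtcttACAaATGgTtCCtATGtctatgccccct
Serpina1b: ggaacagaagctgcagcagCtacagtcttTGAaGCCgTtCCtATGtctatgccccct
Serpina1c: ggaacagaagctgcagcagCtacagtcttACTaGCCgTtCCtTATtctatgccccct
Serpina1d: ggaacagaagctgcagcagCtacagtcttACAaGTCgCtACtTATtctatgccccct
Serpina1e: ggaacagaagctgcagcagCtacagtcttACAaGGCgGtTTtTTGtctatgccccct
These stretches lie at chr12:103853774-103853830, chr12:103728341-103728397, chr12:103895111-103895167, chr12:103763779-103763835 and chr12:103947117-103947173, in the order printed, and are read from the minus strand. In the loop 22.8% of the bases varied among the 5 copies, against 6.18% of the other 1182 coding bases. Over the whole coding part, the 10 pairs of Serpina1 copies were 96.3% to 98.5% identical when aligned.

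The same 57 bases, counted from the hinge of the loop, are shown for the Serpina3 members, with capitals marking the 25 bases that are not the same in all 3 genes.
Serpina3k: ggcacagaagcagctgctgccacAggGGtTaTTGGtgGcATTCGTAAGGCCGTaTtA
Serpina3m: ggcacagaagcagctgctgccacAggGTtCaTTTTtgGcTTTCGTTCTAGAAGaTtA
Serpina3n: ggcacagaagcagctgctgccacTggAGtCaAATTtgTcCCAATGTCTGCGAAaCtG
They lie on the plus strand at chr12:104345269-104345325, chr12:104393769-104393825 and chr12:104413448-104413504. Serpina3k and Serpina3m were 91.3% identical over their aligned coding parts, Serpina3m and Serpina3n 85.3%, and Serpina3k and Serpina3n 82.9%.

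This likeness bears on the measurement, because a read from a stretch that is the same in several copies cannot be placed by its sequence. The reads were single and 100 bases long. Of all windows of that length in the transcript, 61.0% in Serpina1a, 58.5% in Serpina1c, 29.3% in Serpina1d, 26.4% in Serpina1b and 18.2% in Serpina1e also stand, base for base, in a transcript of another gene. The share was 6.09% in Serpina3m, 4.85% in Serpina3k and 0.204% in Serpina3n, and no window of Serpina4-ps1 or Serpina6 was shared. How shared reads were divided is not given in the sources used here, so the split among Serpina1a to Serpina1e, and between the places of Serpina1b and of Serpina1d, is uncertain.

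The RefSeq promoter table of GRCm38.p6 held a window for 6 of the 10 genes. In this reference, the same run of 43 bases stands upstream of each of the 5 Serpina1 copies. The sequence of the wild mice was not read, and the part of this run in the results was not tested. The capitals mark GTTAAT, the core of the motif of the liver factor HNF1.
Serpina1a to Serpina1e: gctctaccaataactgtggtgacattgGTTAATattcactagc
The run lies on the minus strand at chr12:103863625-103863667 (Serpina1a), chr12:103738200-103738242 (Serpina1b), chr12:103904962-103905004 (Serpina1c), chr12:103773634-103773676 (Serpina1d) and chr12:103956960-103957002 (Serpina1e). The motif begins 16 to 27 bases before the annotated start of Serpina1a to Serpina1d and 78 bases before that of Serpina1e. From 100 bases before the motif to 10 bases after it, 106 of 116 bases were the same in all 5 copies. On either strand, GTTAAT stands in 6.43% of the 32851 promoter windows of 250 bases before a start, and it was not found in the window of Serpina3n.

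The libraries were described in brief before the members. In the deposited zFPKM the mode of log2 FPKM ranged from 0.491 to 2.51 over the 6 mice and the fitted SD from 2.51 to 3.12. Without read counts the depth is unknown, and no floor is given for a value. Over 18631 tested entries the median difference between the groups, laboratory minus wild, was 0.0052 in zFPKM but -0.47 in log2(FPKM + 0.1). For several members the log2 FPKM difference is therefore also given below relative to that shift of -0.47. The ratios of mean FPKM are not corrected for it. Transcripts that mark hepatocytes summed to 26520 to 47828 FPKM in each mouse over 5 markers, of which 2 were higher and 2 lower in the laboratory mice, and so were abundant in all 6. All 5 erythrocyte markers were higher in the laboratory mice, with summed FPKM of 1340 to 5134 against 724 to 1581 in the wild mice. Among the other marker lists, 1 of 5 cholangiocyte, 2 of 5 stellate cell and 2 of 4 tested neutrophil markers were higher in the laboratory mice, and none of the tested Kupffer cell, sinusoidal endothelium, lymphocyte, adipocyte or acinar pancreas markers passed the test. The neutrophil markers summed to 7.13 to 13.6 FPKM in the laboratory and 1.89 to 2.78 FPKM in the wild mice, with 1 of 6 listed at 0 in all mice, and the part of these cells in the results was not tested. In bulk tissue, fewer cells of a type and less RNA per cell cannot be told apart.

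Known sex-biased liver genes differed with the sex of the mice, and some of them also between the males. Of 11 female-biased genes, 10 were lower in the laboratory mice, and their summed FPKM was at most 6.10 in the laboratory mice, 139 in male wild mouse 1 and 7638 and 6032 in the female wild mice 2 and 3. Of 10 tested male-biased genes, 8 were higher in the laboratory mice, and their summed FPKM was 1183 to 1797 in the laboratory mice, 1364 in wild mouse 1 and 184 and 221 in wild mice 2 and 3. The steroid enzyme gene Hsd3b5 had 60.3 to 104.4 FPKM in the laboratory males but 4.21 FPKM in the wild male, and the cytochrome gene Cyp2b9 had 29.7 FPKM in the wild male and was listed at 0 in the laboratory males. Other genes named from these lists differed less between the males. Cyp4a12a had 106.9 to 177 FPKM in the laboratory males and 97.3 FPKM in the wild male. Cyp4a12b had 30.3 to 71.5 and 49.7 FPKM, and Elovl3 49.6 to 66.7 and 43.4 FPKM, in the same order. Sult3a1, Sult2a1 and A1bg were listed at 0 in the laboratory males and had 0.254 to 0.459 FPKM in the wild male. Each such contrast rests on 1 wild male. The male comes first wherever the values of the 3 wild mice are listed.

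Laboratory and wild livers differed in most of these genes. The members were chosen with earlier results of these data known, so the shares below describe them and do not test them as a set. All 12 entries passed the filter on low values (zFPKM above -3 in at least 3 mice), and 10 had an adjusted p under 0.05 (limma, Benjamini-Hochberg adjustment over all 18631 entries), against 14.5% of all tested entries. Of these, 7 entries were higher in the laboratory mice, against 7.20% of all, and 3 were lower, against 7.26%. On the log2(FPKM + 0.1) scale, where the median shift is not removed, 4 entries were called higher, against 8.21% of all, and 5 lower, against 38.0%, which is near the share of 5 in 12. The groups did not overlap in zFPKM for 10 entries, against 28.3% of all. The median difference over the 12 entries was 0.38 in zFPKM, against 0.0052 over all tested entries. The higher entries were Serpina1a, Serpina1b and Serpina1d at their chromosome 12 places, Serpina1c, Serpina1e, Serpina3k and Serpina4-ps1. The lower ones were Serpina3m, Serpina3n and Serpina6.

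**Figure D1:**
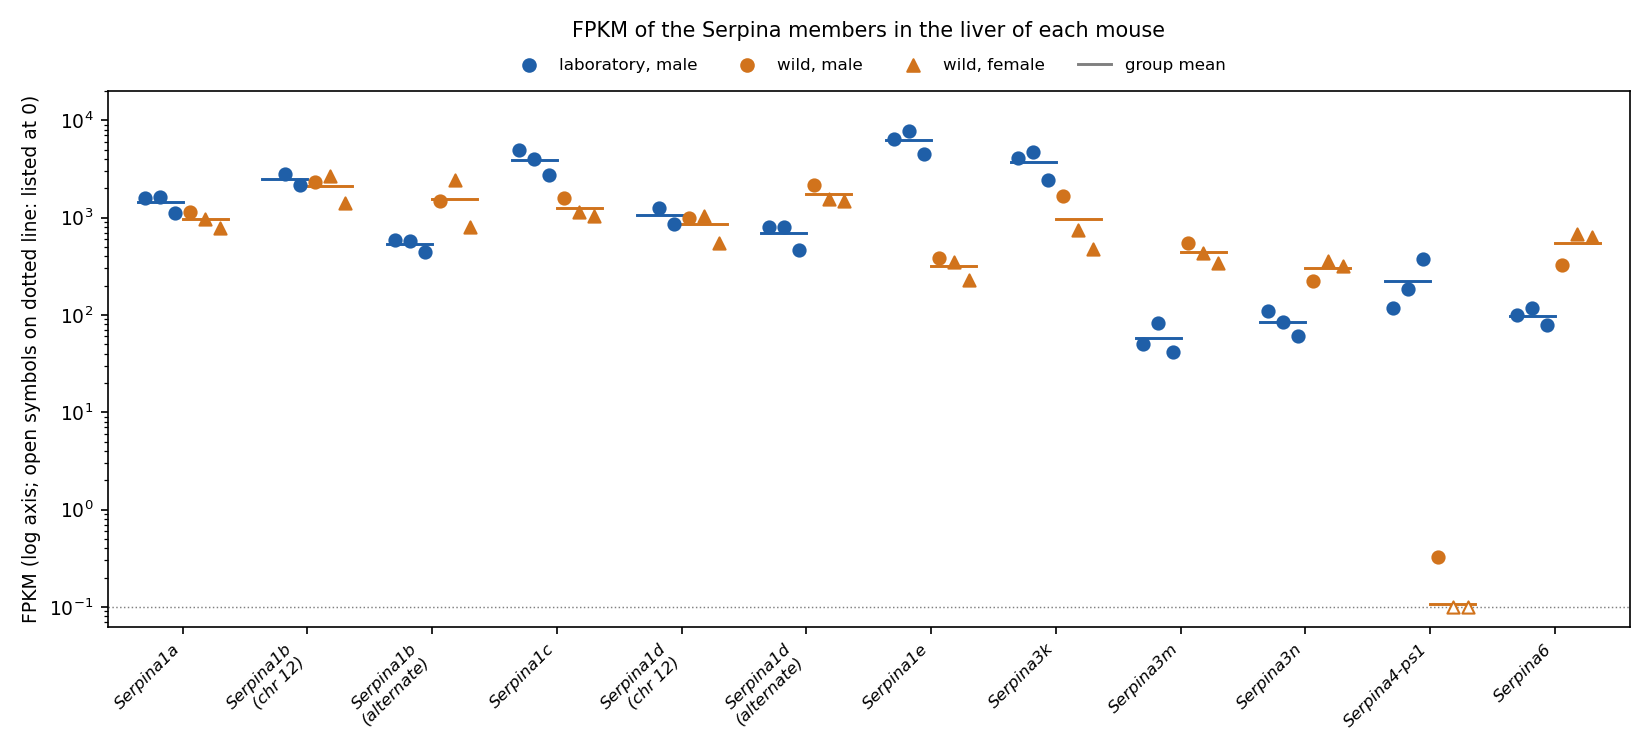
FPKM (log axis) of the 12 Serpina entries in the liver of each mouse, with blue circles for the 3 male laboratory mice, an orange circle for the male and orange triangles for the female wild mice, and a line for each group mean. Open triangles on the dotted line mark Serpina4-ps1 listed at 0 in wild mice 2 and 3. Serpina1e and Serpina4-ps1 show the widest gaps between the groups, and Serpina3m, Serpina3n and Serpina6 are lower in all 3 laboratory mice.

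Among the alpha-1 antitrypsin copies, Serpina1e differed most. Laboratory livers 1, 2 and 3 gave 6481, 7781 and 4510 FPKM, and wild livers 1, 2 and 3 gave 383, 348 and 226 FPKM. All laboratory values lay far above all wild values, and wild mouse 1, the male, was close to the females. The group means were 6258 ± 1647 (SD, n = 3) and 319 ± 82.4 (SD, n = 3), a ratio of 19.6. In zFPKM the difference was 1.75 with a standard error of 0.0923 (limma adjusted p = 4.42e-76), and in log2 FPKM it was 4.76 above the median shift. Ranked by FPKM among all listed entries, Serpina1e stood at 15 to 17 in the laboratory livers and at 260 to 438 in the wild livers. With sex as a covariate, which sets the laboratory mice against wild mouse 1 alone, the difference was 1.70. Over all alternatives the limma adjusted p ranged from 6.49e-100 to 0.450, and the highest of these came from the fit without a filter.

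Serpina1c moved in the same direction by less. The laboratory livers had 4970, 3983 and 2764 FPKM, the wild livers 1589, 1152 and 1030 FPKM. The groups did not overlap. The ratio of the means was 3.11, and the zFPKM difference was 0.82 with a standard error of 0.0891 (limma adjusted p = 1.38e-17). In log2 FPKM it stood 2.09 above the median shift. The call was lost with each mouse centred on its median (adjusted p = 0.180), without the variance trend (0.0507) and with no filter (0.711), within a range over its alternatives of 6.13e-25 to 0.711.

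Serpina1a was higher in the laboratory mice by a smaller margin, and the scale mattered. The laboratory livers had 1596, 1637 and 1110 FPKM, the wild livers 1153, 975 and 787 FPKM. The groups overlapped in FPKM, since wild mouse 1 stood above laboratory mouse 3, but not in zFPKM. The zFPKM difference was 0.45 with a standard error of 0.0936 (limma adjusted p = 3.91e-05). On the log2(FPKM + 0.1) scale the difference was 0.57 and did not pass the test (adjusted p = 0.0921, range over its alternatives 1.28e-06 to 0.450).

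Serpina1b and Serpina1d were measured at both of their places, and the differences at the 2 places had opposite signs. At its chromosome 12 place, Serpina1b reached 2814 and 2142 FPKM in laboratory livers 2 and 3 against 2313, 2651 and 1414 FPKM in the wild livers, while laboratory mouse 1 has no entry there. These groups overlapped in FPKM and not in zFPKM, where the difference was 0.38 with a standard error of 0.0997 (limma adjusted p = 0.00232). At the alternate place, Serpina1b reached 583, 569 and 445 FPKM in the laboratory livers against 1477, 2404 and 800 FPKM in the wild livers. Every wild value was higher than every laboratory value in FPKM, but the zFPKM difference of -0.23 did not pass the test (limma adjusted p = 0.0931). On the log2(FPKM + 0.1) scale the calls were exchanged, with an adjusted p of 0.588 for the chromosome 12 place (range over its alternatives 0.000125 to 0.896) and 0.0184 for the alternate place (range 0.0184 to 0.655). Summed over both places, Serpina1b came to 3382 and 2587 FPKM in laboratory livers 2 and 3 against 3789, 5055 and 2214 FPKM in the wild livers, which overlapped (two-sided exact permutation p = 0.8, the smallest possible being 0.2).

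The differences of Serpina1d had the same signs as those of Serpina1b. At chromosome 12 it reached 1260 and 862 FPKM in laboratory livers 2 and 3 against 991, 1028 and 542 FPKM in the wild livers, and the zFPKM difference was 0.38 with a standard error of 0.108 (limma adjusted p = 0.00478). At the alternate place it reached 796, 803 and 465 FPKM in the laboratory livers against 2163, 1549 and 1464 FPKM in the wild livers, with no overlap, and a zFPKM difference of -0.22 (limma adjusted p = 0.104). It was called lower on the log2(FPKM + 0.1) scale (adjusted p = 0.00625), with log2(FPKM + 1), with quantile normalization and with a filter on FPKM, within a range over its alternatives of 0.00625 to 0.698. Summed over both places, 2063 and 1327 FPKM stood against 3154, 2577 and 2006 FPKM, which overlapped (two-sided exact permutation p = 0.4, the smallest possible being 0.2). The call at chromosome 12 was lost without laboratory mouse 2 (adjusted p = 0.116) and without wild mouse 3 (adjusted p = 0.107), within a range over its alternatives of 0.000972 to 0.484. That of Serpina1b at chromosome 12 was lost without wild mouse 3 (adjusted p = 0.0502).

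**Figure D2:**
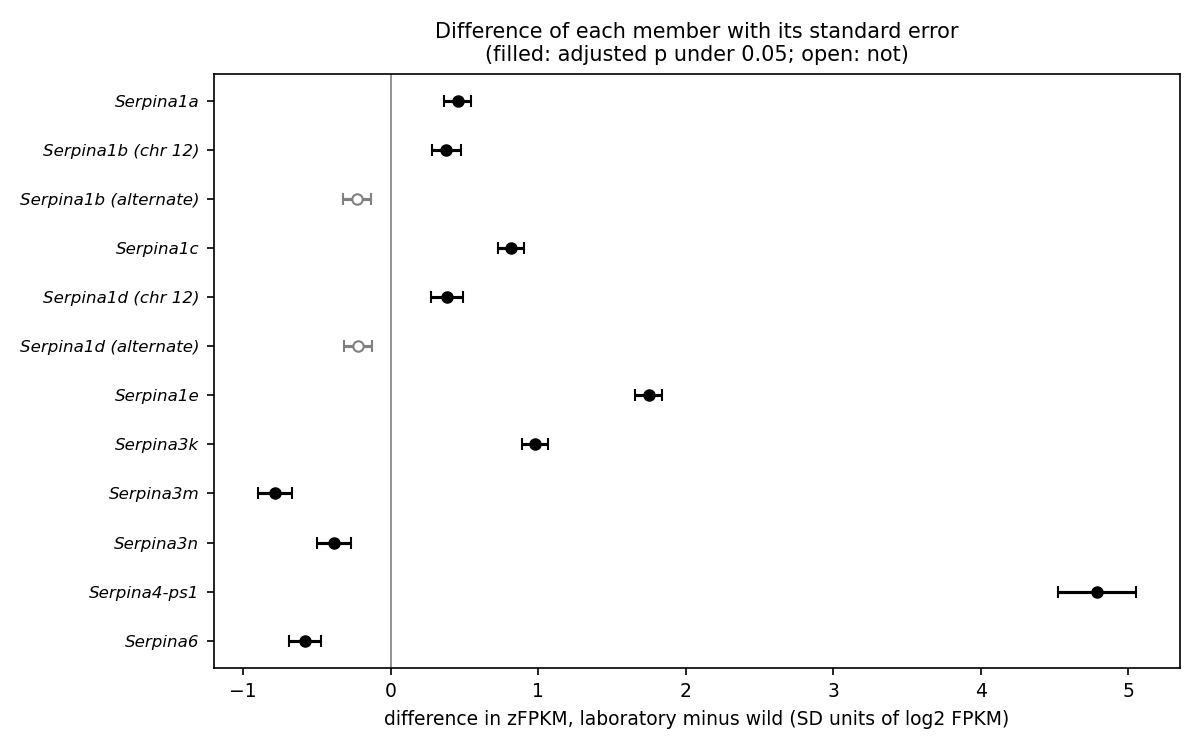
Difference in zFPKM between laboratory and wild mice, laboratory minus wild, for the 12 Serpina entries, with bars of 1 standard error. The bars come from the trend of variance over all genes and do not show a gene's own spread between mice. Filled points had an adjusted p under 0.05. The difference ranges from -0.78 in Serpina3m to 4.79 in Serpina4-ps1, and both open points are alternate places.

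Because the copies share reads, their sum was compared too. Over the 5 entries listed for all mice (Serpina1a, Serpina1c, Serpina1e and the alternate places of Serpina1b and Serpina1d) it came to 14426, 14773 and 9294 FPKM in the laboratory livers against 6766, 6427 and 4307 FPKM in the wild livers. All laboratory sums were higher, with means of 12831 ± 3068 and 5833 ± 1332 (SD, n = 3 each, two-sided exact permutation p = 0.1, the smallest possible), a ratio of 2.20. As a share of the summed FPKM of all genes with an estimate in every mouse, the log2 difference was 0.94 instead of 1.13. Over all 7 entries the sum was 18847 and 12298 FPKM in laboratory livers 2 and 3 against 10069, 10106 and 6263 FPKM in the wild livers, with no overlap (two-sided exact permutation p = 0.2, the smallest possible). Here the ratio of the means was 1.77 and the log2 difference 0.82. The chromosome 12 places of Serpina1b and Serpina1d, left out of the smaller sum, each held a larger share in every wild mouse than in laboratory mice 2 and 3.

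The make-up of the alpha-1 antitrypsin transcripts differed more than their sum. Serpina1e made up 41.3% and 36.7% of the 7 entries in laboratory mice 2 and 3, against 3.80%, 3.44% and 3.61% in the wild livers. Serpina1b at chromosome 12 was the highest of the 7 in wild mice 1 and 2, with 23.0% and 26.2%, while in wild mouse 3 Serpina1d at the alternate place was higher, with 23.4% against 22.6%. Serpina1c made up 21.1% and 22.5% in laboratory mice 2 and 3, against 15.8%, 11.4% and 16.4% in the wild livers. Among the 12 entries, Serpina1e had the highest FPKM in each laboratory mouse, and the next was Serpina1c in laboratory mice 1 and 3 and Serpina3k in laboratory mouse 2. Serpina1e had a lower FPKM than every other Serpina1 entry in each of the wild mice.

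**Figure D3:**
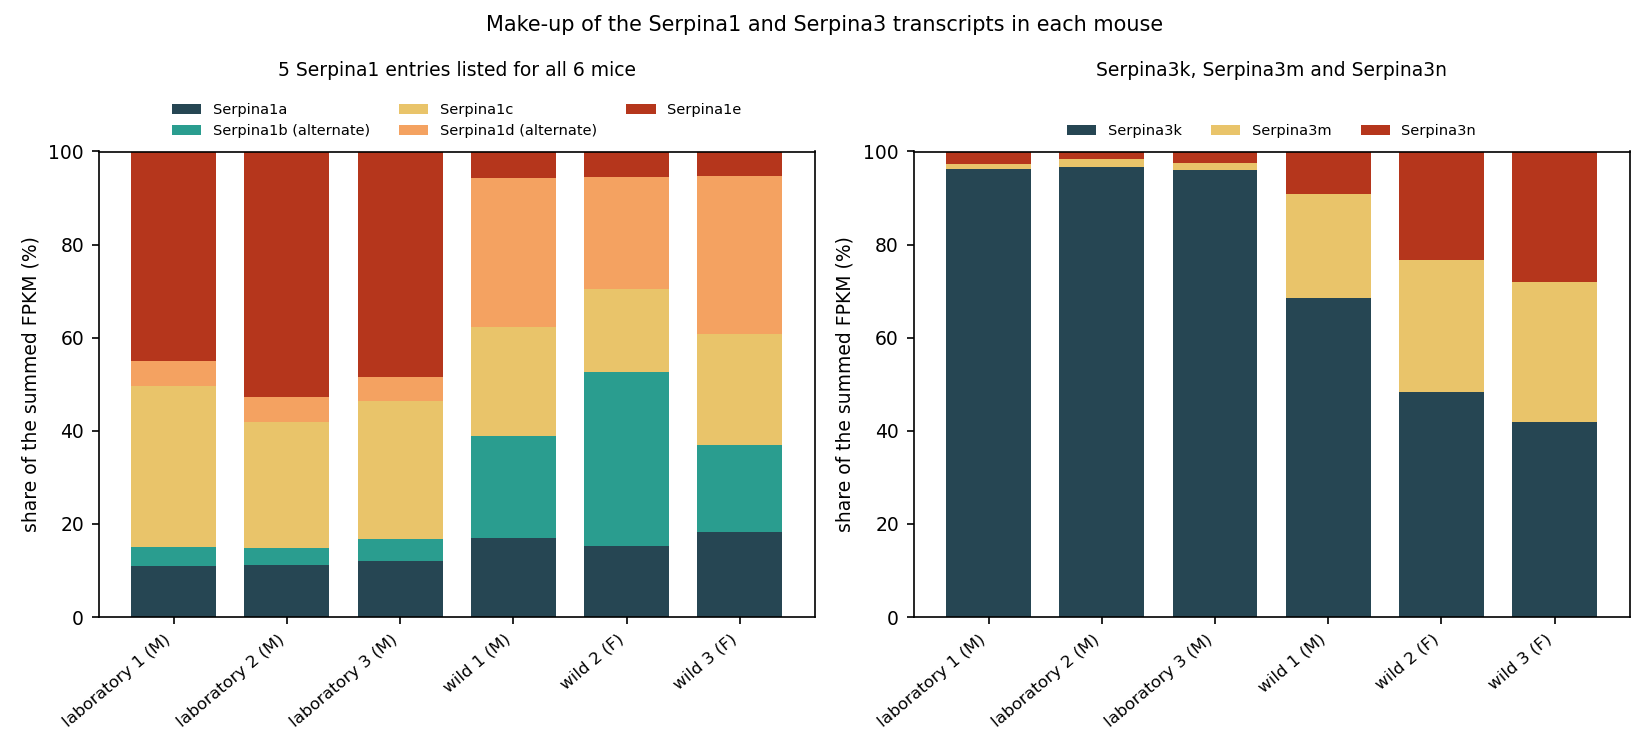
Share of the summed FPKM (percent) taken by each Serpina1 entry that is listed for all 6 mice (left) and by Serpina3k, Serpina3m and Serpina3n (right), as stacked bars for each mouse, with M and F for male and female. Serpina1e takes 44.9% to 52.7% of the left bars in the laboratory mice and 5.24% to 5.66% in the wild mice, and Serpina3k takes at least 96.0% of the right bars in the laboratory mice and at most 68.4% in the wild mice.

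The Serpina3 members moved in both directions. Serpina3k, known as contrapsin and an inhibitor of trypsin-like proteases, reached 4083, 4757 and 2439 FPKM in the laboratory livers against 1664, 741 and 479 FPKM in the wild livers. The groups did not overlap, and wild mouse 1 stood between the laboratory mice and the wild females. The ratio of the means was 3.91, and the log2 FPKM difference stood 2.58 above the median shift. In zFPKM the difference was 0.98 with a standard error of 0.0905 (limma adjusted p = 1.74e-24). With sex as a covariate, against wild mouse 1 alone, it was 0.65. Over all alternatives its limma adjusted p ranged from 2.05e-33 to 0.450.

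Serpina3m, its close relative by sequence, was lower in the laboratory mice. The laboratory livers had 50.0, 82.5 and 41.7 FPKM, the wild livers 546, 433 and 341 FPKM. The groups stood well apart, with wild mouse 1 the highest. The wild mean was 7.58 times the laboratory mean, and the zFPKM difference was -0.78 with a standard error of 0.116 (limma adjusted p = 1.26e-09). Relative to the median shift, the log2 FPKM difference was -2.49. The call was lost without the variance trend (adjusted p = 0.0839) and with no filter (0.388), within a range over its alternatives of 7.31e-10 to 0.388.

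Serpina3n, an acute phase serpin that inhibits cathepsin G and granzyme B, reached 109.8, 84.1 and 60.7 FPKM in the laboratory livers against 221, 358 and 321 FPKM in the wild livers. The FPKM did not overlap, but the zFPKM did, since laboratory mouse 1 stood above wild mouse 1 on that scale. The zFPKM difference was -0.39 with a standard error of 0.116 (limma adjusted p = 0.00983), and the wild mean was 3.54 times the laboratory mean in FPKM. Its log2 FPKM difference was -1.37 relative to the median shift. The call was lost without laboratory mouse 3 (adjusted p = 0.0680), without wild mouse 2 (0.158) and without wild mouse 3 (0.156), within a range over its alternatives of 0.00117 to 0.598, the last with sex as a covariate.

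Serpina3k, Serpina3m and Serpina3n together came to 4243, 4923 and 2542 FPKM in the laboratory livers against 2432, 1533 and 1140 FPKM in the wild livers (two-sided exact permutation p = 0.1, the smallest possible). The lowest laboratory sum and the highest wild sum were close to each other. Serpina3k made up 96.2%, 96.6% and 96.0% of this sum in the laboratory livers, against 68.4%, 48.4% and 42.0% in the wild livers. In the wild mice Serpina3m took 22.5%, 28.3% and 29.9% of it and Serpina3n took 9.10%, 23.4% and 28.1%.

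Serpina6, corticosteroid-binding globulin, was lower in the laboratory mice. The laboratory livers had 98.7, 117 and 79.3 FPKM, the wild livers 326, 682 and 631 FPKM. The groups did not overlap, and wild mouse 1 stood between the laboratory mice and the wild females. The wild mean was 5.56 times the laboratory mean, and the log2 FPKM difference was -1.95 relative to the median shift. In zFPKM the difference was -0.58 with a standard error of 0.111 (limma adjusted p = 6.35e-06, range over its alternatives 2.39e-06 to 0.450). With sex as a covariate, against wild mouse 1 alone, it was -0.29 and did not pass the test. In that fit the median difference over all tested entries was 0.27, against 0.0052 in the main comparison.

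Serpina4-ps1 was abundant in the laboratory mice and at or near 0 in the wild mice. The laboratory livers had 117, 183 and 376 FPKM and wild liver 1 had 0.324 FPKM, while wild livers 2 and 3 list the gene at 0. The lowest laboratory value was 361 times the value of wild mouse 1, and no fold is given against the mice listed at 0. The zFPKM difference, with the zeros set to the floor of -3, was 4.79 with a standard error of 0.265 (limma adjusted p = 2.94e-69). The gene passed the filter on low values through the laboratory mice, and the size of the difference rests on the floor. With a floor of -20 it was 16.1 and did not pass the test (adjusted p = 0.140, range over its alternatives 1.35e-76 to 0.143). By FPKM rank it stood at 161 to 441 in the laboratory livers. No 100-base window of its transcript was shared with another gene.

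With sex as a covariate, 5 of the 12 entries were called, against 7.50% of all tested entries, namely Serpina1c, Serpina1e, Serpina3k, Serpina3m and Serpina4-ps1. In that fit the sexes are told apart in the wild group alone, from 1 male and 2 females. Its group difference is therefore the laboratory mean less the value of wild mouse 1, and rests on 1 wild mouse. The median of this difference over all tested entries was 0.27, against 0.0052 in the main comparison, and the differences are not corrected for it. The entries that lost their call were Serpina1a (adjusted p = 0.0525), Serpina1b and Serpina1d at chromosome 12 (0.165 and 0.198), Serpina3n (0.598) and Serpina6 (0.262). A fit without the trend of variance with level called 3 entries, against 4.27% of all, namely Serpina4-ps1 (adjusted p = 0.00164), Serpina1e (0.00304) and Serpina3k (0.0485), within ranges over their alternatives of 1.35e-76 to 0.143, 6.49e-100 to 0.450 and 2.05e-33 to 0.450. The direction was the same as in the main comparison for every entry under every alternative that could be fitted.

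Of the other 19 Serpina names, 13 passed the filter on low values, and 6 were called, against 14.5% of all tested entries, 2 of them higher (7.20% of all) and 4 lower (7.26% of all) in the laboratory mice. The median difference over the 13 was 0.042 in zFPKM. Serpina12, which encodes the adipokine vaspin, reached 19.6, 17.4 and 24.7 FPKM in the laboratory livers against 0.390, 0.217 and 0.217 FPKM in the wild livers. The groups were far apart, with a ratio of 74.9 and a zFPKM difference of 2.42 (limma adjusted p = 1.03e-17), and this call held under all 19 alternatives. Serpina9, named centerin for its expression in germinal centre B cells, was higher too, with 1.67, 1.55 and 0.720 FPKM in the laboratory livers against 0.499 FPKM in wild liver 1, and wild livers 2 and 3 list it at 0 (zFPKM difference 2.10, limma adjusted p = 9.82e-05). With sex as a covariate the difference of Serpina9 was 0.97 and did not pass the test (adjusted p = 0.288, range over its alternatives 1.31e-05 to 0.450).

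The 4 lower genes are Serpina3 relatives at low levels. Serpina3a was listed at 0 in all laboratory livers and reached 7.40, 3.05 and 3.39 FPKM in the wild livers, through which alone it passed the filter (zFPKM difference -3.08, limma adjusted p = 1.73e-09). Serpina3c had at most 0.0317 FPKM in the laboratory livers against 30.2, 14.7 and 8.93 FPKM in the wild livers (zFPKM difference -2.95, limma adjusted p = 1.55e-13). The pseudogene Serpina3e-ps had at most 0.0139 FPKM in the laboratory livers against 3.96, 5.74 and 4.37 FPKM in the wild livers (zFPKM difference -2.94, limma adjusted p = 5.73e-09). Serpina3h differed by -1.36 in zFPKM (limma adjusted p = 0.00399), with 0.204, 0.204 and 0.0553 FPKM against 0.737, 8.87 and 4.79 FPKM. Wild mouse 1 stood apart from the wild females, and its zFPKM lay below those of laboratory mice 1 and 2. The call of Serpina3h was lost without laboratory mouse 3 (adjusted p = 0.0917), without wild mouse 2 (0.188) and without wild mouse 3 (0.114), and with sex as a covariate the difference was -0.37 (0.726, the highest over its alternatives, from 0.000346).

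The other 7 tested Serpina genes did not pass the test. Serpina10, which encodes the protein Z-dependent inhibitor of coagulation factor Xa, had 45.1, 53.1 and 41.3 FPKM in the laboratory livers against 113, 166 and 154 FPKM in the wild livers. The FPKM groups did not overlap, yet the zFPKM difference was -0.31 (limma adjusted p = 0.0827), whereas on the log2(FPKM + 0.1) scale the adjusted p was 0.000425 (range over its alternatives 0.000425 to 0.766). Serpina11 had 79.3 to 107.7 FPKM in the laboratory livers against 80.9 to 82.5 FPKM in the wild livers (zFPKM difference 0.32, limma adjusted p = 0.0601). Serpina7, the thyroxine-binding globulin gene on the X chromosome, had 6.09 to 11.8 FPKM and 4.98 to 31.9 FPKM (limma adjusted p = 0.892). Serpina5, Serpina3f, Serpina3g and Serpina3i had adjusted p-values of 0.950, 0.744, 0.941 and 0.602 in the same limma fit.

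**Figure D4:**
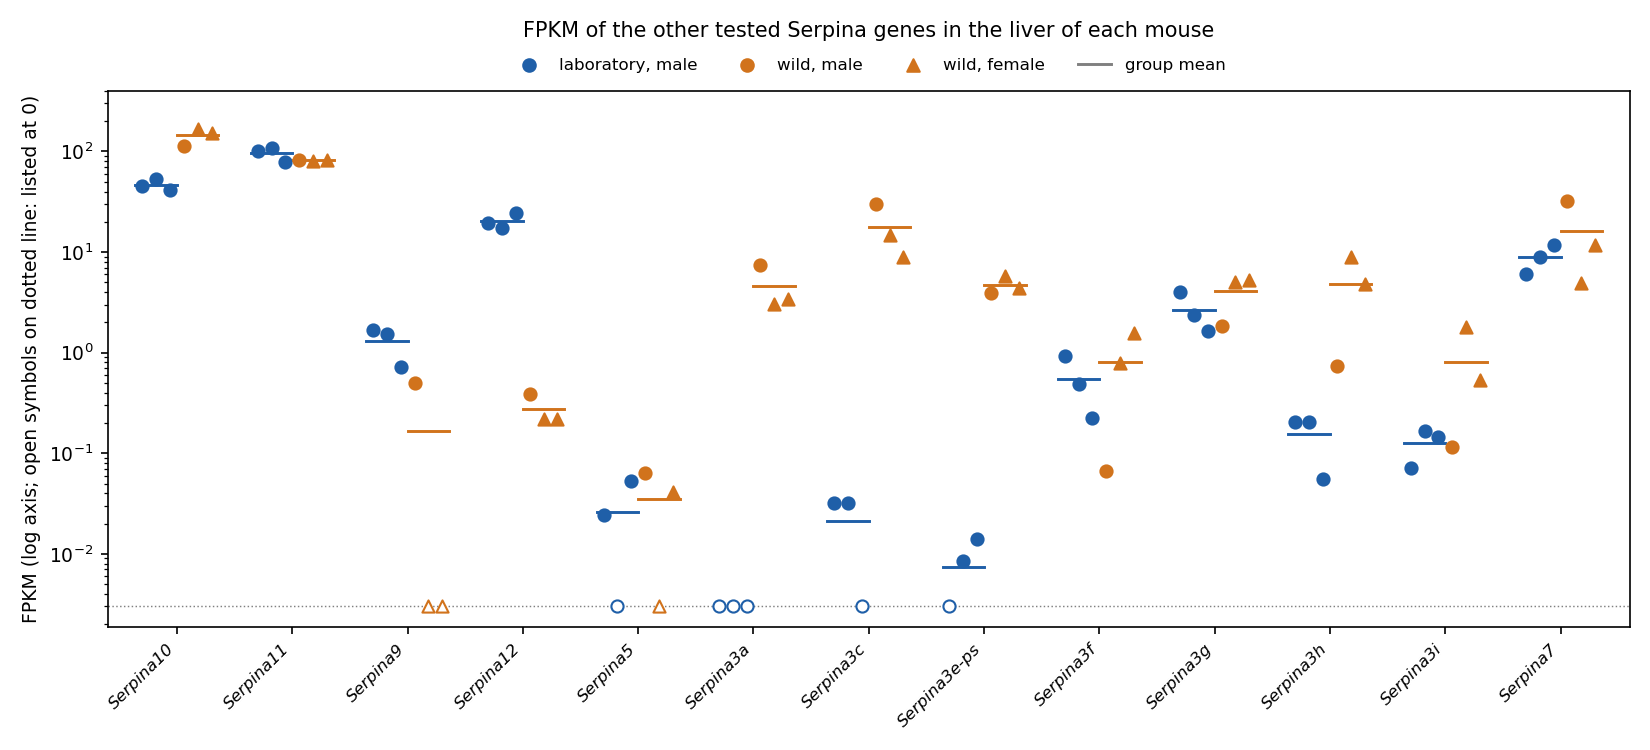
FPKM (log axis) of the 13 other tested Serpina genes in the liver of each mouse, with the symbols and group means drawn as for the members and open symbols on the dotted line for values listed at 0. Serpina12 and Serpina9 are higher in all 3 laboratory mice, and Serpina3a, Serpina3c, Serpina3e-ps and Serpina3h are lower in all 3.

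Genes without a Serpina name were examined along the same stretch of chromosome 12. Between the first and the last Serpina gene lie 12 such names, of which 2 were tested, and with the 5 nearest tested names on each side this made 12 neighbours. Of these, 3 were higher (7.20% of all tested entries) and 2 were lower (7.26% of all) in the laboratory mice, with a median difference of -0.24 in zFPKM. The largest differences were 1.92 in Gm31271 (limma adjusted p = 0.000828), 1.37 in Ifi27l2a (6.76e-10) and 1.31 in Snhg10 (0.00816), each higher in the laboratory mice, and -0.48 in Ifi27 (0.00258), whose listed span overlaps that of Ifi27l2a. The last called neighbour, Gm8893, was singled out after its values were seen. It is a pseudogene that lies between Serpina1d and Serpina1a (chr12:103817771-103822261) and shares 8.61% to 16.3% of the 100-base windows of the Serpina1 transcripts. Gm8893 had 359.7, 327 and 226 FPKM in the laboratory livers against 1197, 624 and 806 FPKM in the wild livers (zFPKM difference -0.28, limma adjusted p = 0.0446). The calls of Ifi27, Snhg10 and Gm8893 were lost without wild mouse 1 (adjusted p = 0.0725, 0.207 and 0.234). That of Snhg10 was also lost without laboratory mouse 1 or 2 (0.125 and 0.112), and that of Gm8893 without laboratory mouse 2 or 3 or wild mouse 3 (0.0988, 0.116 and 0.182).

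The root mean square difference in zFPKM over the mice weighs the level of a gene as well as its pattern between mice. A gene near by this measure need not differ between the groups in the same way. The genes with the smallest values were found for each called member. For Serpina3m they were Ldha (0.0638), Cth (0.0644) and Tpi1 (0.109), for Serpina3n Gstk1 (0.0720), Got2 (0.109) and Lamp2 (0.1095), and for Serpina6 Slc27a5 (0.120), Eef2 (0.137) and Qdpr (0.137), each over 6 mice. Serpina1a was closest to Rps29 (0.0955), Ttc36 (0.0961) and Cox6b1 (0.113). At chromosome 12, Serpina1d was closest to Orm1 (0.0703), Scp2 (0.119) and Rps29 (0.132) and Serpina1b to genes that include Sod1 (0.113) and Gstm1 (0.188), over 5 mice. The nearest genes of the members with larger differences were farther away. Serpina1c was closest to Sod1 (0.266), mt-Rnr1 (0.277) and B2m (0.307), Serpina3k to mt-Rnr1 (0.268), Mup17 (0.302) and Mup18 (0.341), Serpina1e to mt-Rnr1 (0.341), mt-Rnr2 (0.411) and Mup18 (0.521), and Serpina4-ps1 to Urml (1.03), Nat8f5 (1.08) and C730036E19Rik (1.10).

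Lists of genes that act with these serpins were counted in the same comparison, in which 14.5% of all entries were called. Over all lists, the sex-biased ones included, 106 genes were tested. In zFPKM 18 were higher and 28 lower in the laboratory mice, against 7.20% and 7.26% of all entries. On the log2(FPKM + 0.1) scale 9 were higher and 56 lower, against 8.21% and 38.0% of all entries. In zFPKM, 8 of the higher genes are on the male-biased list and 10 of the lower ones on the female-biased list. Those 2 lists concern sex, and only the wild group held females. Of the genes named below, Proc, Ttr, Bcl6 and Orm2 stayed called with sex as a covariate. Of 14 other serpins, 4 were lower and none was higher in the laboratory mice (median difference -0.29). They included Serpinb9, an intracellular granzyme B inhibitor, by -1.04, Serpind1, heparin cofactor II, by -0.39 and Serpinf2, the plasmin inhibitor, by -0.32. These 3 calls were lost without wild mouse 2 (adjusted p = 0.106, 0.0802 and 0.176) and without wild mouse 3 (0.0922, 0.0904 and 0.139). Of 12 tested target proteases, 3 were higher (Klk1 by 1.49, Klkb1 by 0.48 and Proc by 0.34) and 1 was lower (prothrombin, F2, by -0.49), with a median of 0.25. Klk1 was near 0 in all mice, with 0.399, 0.516 and 0.144 FPKM in the laboratory livers against 0.0584, 0.0244 and 0 FPKM in the wild livers. The size of its difference rests on the floor, and with a floor of -20 it was 7.16 and did not pass the test (limma adjusted p = 0.459). The call of Klk1 was lost without laboratory mouse 1 or 2 or wild mouse 3 (adjusted p = 0.158, 0.151 and 0.175), that of Klkb1 without laboratory mouse 1 or 2 (0.0987 and 0.0692) and that of Proc without laboratory mouse 1 or 2 or wild mouse 1 (0.0833, 0.0732 and 0.0634). The list for the hormone side of Serpina6 also held thyroxine carrier genes, and its 7 tested genes had a median of -0.17. Its only called gene was such a carrier, Ttr (0.53), and none of its tested glucocorticoid genes was called. On the log2(FPKM + 0.1) scale Ttr did not pass the test (adjusted p = 0.103), and with quantile normalization its difference was -0.23 (adjusted p = 0.120, range over its alternatives 8.93e-17 to 0.997).

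Of 22 transcription factors and receptors that act on liver serpin genes, 2 were higher and 3 lower (median -0.00058). The female-biased repressor gene Cux2 differed by -1.31, Il6ra by -1.15 and Stat3 by -0.51, while Bcl6, a repressor gene regulated by growth hormone, differed by 0.60. Cux2 had 6.10 and 7.79 FPKM in wild mice 2 and 3 and at most 0.0903 FPKM in the 4 males. Its difference was 0.48, of opposite sign, with sex as a covariate (adjusted p = 0.559), and its call was lost without laboratory mouse 2 or 3 or wild mouse 2 or 3 (0.0609, 0.140, 0.365 and 0.432). Il6ra had 5.55 FPKM in wild mouse 1 and 19.8 and 19.9 FPKM in the wild females. The call of Stat3 was lost without laboratory mouse 1 or 2 or wild mouse 2 or 3 (adjusted p = 0.0535, 0.0695, 0.277 and 0.210). Bcl6 had 2.03 FPKM in wild mouse 1 and 7.09 and 13.3 FPKM in the wild females, and its difference was 0.22 without wild mouse 1 (adjusted p = 0.431), while its call was also lost without laboratory mouse 1 or 2 (0.127 and 0.140). Of 13 acute phase genes, 3 were higher and 5 lower (median -0.11), among them Orm2 by 0.90, Orm1 by 0.57, Crp by -0.80 and Apcs by -0.73. Of 18 genes that handle misfolded alpha-1 antitrypsin in the secretory pathway, 1 was higher and 5 were lower (median -0.26), the lower ones including the chaperone genes Canx (-0.83) and Hspa5 (-0.64), the extraction ATPase gene Vcp (-0.59) and the cargo receptor subunit gene Mcfd2 (-0.53).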

How the data were processed

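Liver RNA from 3 laboratory and 3 wild mice was measured by RNA-Seq, and each mouse was 1 biological replicate. The labels give no replicate numbers, so mice are numbered in accession order. Per the study's methods, strand-specific libraries of mRNA gave single reads of 100 bases, which were aligned with kalign to a masked mouse genome, which the labels name as GRCm38.p6. Reads of both groups were thus aligned to 1 reference, whose chromosomes are of strain C57BL/6J. The strain of the alternate sequence that holds entries of Serpina1b and Serpina1d is not given in the sources used here. That sequence could not be compared with chromosome 12. The authors calculated FPKM with the Tuxedo pipeline and made zFPKM from it. The deposited zFPKM is a score, and the deposited FPKM is normalized to length and library size. No counts were used here, so the depth is unknown, no count-based test was run, and precision rests on 3 mice a group.

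The members and all gene lists were chosen with earlier results of these data known. An entry was tested where zFPKM exceeded -3 in 3 or more mice and each group had 2 or more values, with lower values and zeros set to -3. Gene names had to be listed once for every mouse. The 2 members listed at 2 places were tested at each place, which departs from the planned rule, because laboratory mouse 1 lists only the alternate place. Values marked as failed estimates were missing (24 names, no member), and so were 14 names listed at 0 in laboratory mouse 1, whose file has no status column, and above 0 in zFPKM elsewhere. The group difference came from limma 3.58.1 under R 4.3.3 (a linear model with moderated, trended variances, two-sided, Benjamini-Hochberg adjustment over all 18631 entries, adjusted p under 0.05). The prior degrees of freedom were infinite in this fit, so the standard errors came from the trend over all genes rather than from a gene's own spread. Sums were tested by exact permutation of the mice, two-sided, where the smallest p is 0.1 for 3 against 3 mice and 0.2 for 2 against 3. FPKM fold changes are ratios of group means, and log2 differences use log2(FPKM + 0.1).

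Named genes were all members, the other tested Serpina genes, up to 4 called genes a list and up to 4 called neighbours with the largest differences, and the 3 genes nearest to each called member. Of the genes this rule names, 2 are not reported here. Coding bases came from GENCODE M21 transcripts and promoters and positions from RefSeq GRCm38.p6, and starts in the files, counted from 0, were raised by 1. Windows of 100 bases were compared with all other GENCODE transcripts that do not overlap the member's exons. The other steps used Python 3.11.15, scipy 1.17.1, pandas 2.3.3 and numpy 2.4.6. The alternatives were other floors, filters, scales, variance models and treatments of failed estimates, sex as a covariate, and each mouse left out in turn.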

Additional observations from a re-analysis of the deposited data

How the results depend on the processing

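No paired analysis was possible because the labels give the mice no replicate numbers and nothing else ties a laboratory mouse to a wild mouse. Of the differences of the 12 member entries, recomputed under the alternatives, 171 kept their direction and side of the threshold, 48 kept their direction and lost the call, 8 kept their direction and gained one, and none changed sign. The count of called members was 10 (14.5% of all entries). It was 5 with a floor of -20 (6.45% of all), 5 with sex as a covariate (7.50%) and 4 with each mouse centred on its median (28.4%). It was 3 with limma without the trend (4.27%) and 0 with no filter on low values (0.0444%), where limma gave 4 members an unadjusted p under 0.05. With each mouse left out in turn it ranged from 8 to 10, and the share of all entries called from 7.52% to 16.9%. The no-filter fit called 21 of all 47246 entries. For the other Serpina genes the count of 6 became 2 with a floor of -20 and 2 with no filter. It was 2 where zFPKM had to be above -3 in all mice (14.0% of all entries), and it ranged from 4 to 6 with a mouse left out. For the list genes, the sex-biased ones included, 106 were tested in the main fit, and the count of 46 became 20 with a floor of -20. It was 0 with no filter (40 at an unadjusted p under 0.05), 4 without the trend and 19 with sex as a covariate. With a mouse left out it ranged from 31 to 49. The shares of all entries in these fits are those given for the members. The list count was 57 with log2(FPKM + 1) (44.3% of all entries), 62 with quantile normalization (39.2%) and 65 with log2(FPKM + 0.1) (46.2%). In these fits the split of 18 higher and 28 lower became 6 and 51, 21 and 41, and 9 and 56. With sex as a covariate it was 10 and 9. The log2 difference of the sum over the 5 Serpina1 entries listed for all mice was 1.13. It ranged from 0.93 to 1.35 with a mouse left out and was 0.94 as a share of all genes. On the log2(FPKM + 0.1) scale the split of calls over all entries was 1529 higher and 7072 lower, against 1342 and 1352 in zFPKM, and over the members it was 4 and 5 against 7 and 3. With log2(FPKM + 1) these splits were 1387 and 6870 and again 4 and 5, and with sex as a covariate they were 1148 and 250 and 4 and 1. With quantile normalization the members split into 5 and 4, against 3488 and 3809 over all entries. The causes of these changes were not tested.

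Some named genes changed sign. Serpina5 was -0.090 with quantile normalization, -0.013 with log2(FPKM + 1), -0.096 with log2(FPKM + 0.1) and -0.063 with sex as a covariate, and ranged from -0.23 to 0.33 with a mouse left out. Serpina3f was -0.16 with log2(FPKM + 1) and -0.12 with log2(FPKM + 0.1), and ranged from -0.38 to 0.70 with a mouse left out. Serpina3g was -0.43 with log2(FPKM + 1) and -0.54 with log2(FPKM + 0.1), and ranged from -0.25 to 0.33. Serpina3i was 0.61 with sex as a covariate and ranged from -0.95 to 0.024. Serpina7 was -0.49 with log2(FPKM + 1), -0.51 with log2(FPKM + 0.1) and -0.25 with sex as a covariate, and ranged from -0.095 to 0.21. Of the called genes, Ttr was -0.23 with quantile normalization and Cux2 was 0.48 with sex as a covariate.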
